A study of Mus musculus with 12 samples.

Results

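The genes described here are the collagens, the family of triple-helical proteins that form most of the extracellular matrix. A gene was taken as a member when the array's gene name read Col, a number, the letter a and a number, and when the scanner software marked at least 1 of its probes as well above background, in either colour, on 2 or more of the 12 arrays. The array named 40 such genes with 78 probes. Of these, 34 genes with 52 probes met the detection rule, and 33 were tested among 20048 genes in all. The remaining member, Col15a1, was above background on only 2 arrays and was not tested. Col4a3, Col10a1, Col12a1, Col19a1, Col24a1 and Col28a1 were not detected. Just outside the rule, probes of Col10a1, Col12a1 and Col24a1 were above background on 1 array and read 0.07, -0.14 and 0.06 in Dicer-null over wild type on the log2 scale. Just inside it, Col15a1 read 0.02 and Col6a3, above background on 3 arrays, read -0.23. A gene with several probes was read from its brightest one, and its other probes are given separately.

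The samples were mouse embryonic stem (ES) cells, hybridised in pairs on 2-colour arrays. One kind of array set Dicer-null cells, which lack the nuclease that makes microRNAs, against wild-type cells. The other kinds set 2 derived lines, with overexpression of Dnmt1 or of Dnmt3a and Dnmt3b according to the labels, against their Dicer-null parents, so these lines and their parents both lack Dicer. Every pairing exists for the clones 27G5 and 27H10 and was run on 2 arrays with the dyes exchanged, which gave 6 ratios from 7 RNAs. The cells grew on gelatin with leukemia inhibitory factor and received no further treatment. Each null line is 1 clone, wild type is 1 RNA, and neither the strain nor the promoter of any introduced gene was used here.

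In the null cells, 1 Dicer1 probe read -4.07 ± 0.08 on the log2 scale against wild type and a second, brighter one read -0.53 ± 0.04 (SD, n = 2 clones). In the Dnmt1-labelled cells the Dnmt1 probe read 0.27 ± 0.23 over Dicer-null (limma adjusted p = 0.111). In the Dnmt3a,3b-labelled cells the brightest Dnmt3a probe read -1.03 ± 0.92 (adjusted p = 0.0825) and the Dnmt3b probe read -1.04 ± 0.59 (adjusted p = 0.0341), so these probes did not show the labelled overexpression. Whether they lie within the introduced sequences was not determined, and these cells are called Dnmt1-labelled and Dnmt3a,3b-labelled below. Of the 10 ES cell markers tested, all were well above background in every RNA. At an adjusted p under 0.05, 8 were higher in null cells than in wild type, beside 20.4% of all genes. Median array signals were 112 to 135 in green and 234 to 334 in red.

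Collagens are trimers of alpha chains that are hydroxylated, folded with the help of the chaperone Serpinh1 and, for the fibrillar types, trimmed and cross-linked outside the cell. Fibrillar collagens such as types I, III, V and XI build the fibres of connective tissue, type IV forms the sheet of basement membranes, and other classes decorate fibrils, anchor membranes or span the plasma membrane. In the early mouse embryo type IV collagen is laid down by endoderm and trophoblast cells, while most fibrillar collagens are products of mesenchymal cells. The miR-29 family of microRNAs, whose maturation needs Dicer, has been reported to lower several collagen messages in mouse and human cells. Its mature sequences are shown because 7 collagens named on the array (Col1a1, Col1a2, Col3a1, Col4a1, Col4a2, Col5a3 and Col15a1) have been published as its targets. The capitals mark the seed, bases 2 to 8, which was the same in all 3.
mmu-miR-29a-3p: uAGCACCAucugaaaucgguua
mmu-miR-29b-3p: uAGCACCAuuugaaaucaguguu
mmu-miR-29c-3p: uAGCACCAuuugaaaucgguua
The sequences are from RefSeq (GRCm38.p6), where miR-29a lies on chromosome 6 and miR-29c on chromosome 1.

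Sequences of probes and promoters bear on the values that follow. The Col1a1 probes are shown because their values differed widely. All 3 lie on the plus strand of chromosome 11 (build mm7). The brightest, at chr11:95060800-95060859, is the most 3′ and is shown by its first 30 bases, and the others are shown whole.
Col1a1 probe at 95060800: ttttcctttgcattcacctttcaaacttag
Col1a1 probe at 95059777: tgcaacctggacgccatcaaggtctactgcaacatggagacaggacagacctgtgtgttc
Col1a1 probe at 95047002: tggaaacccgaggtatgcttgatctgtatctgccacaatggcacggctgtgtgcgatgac
Of the members' promoters, the RefSeq table (GRCm38.p6) held 28. Col4a1 and Col4a2, whose probes are compared below, are transcribed away from each other on chromosome 8, and their annotated starts lie 21 bases apart with the first transcribed bases overlapping. The 22 bases at chr8:11312805-11312826 (plus strand) are common to both.
Col4a2 and Col4a1 start region: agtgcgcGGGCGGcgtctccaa
Col1a2 and Col7a1 had the lowest ratios over wild type among the members with a promoter entry, and their 150 bases before the annotated start are shown, at chr6:4505468-4505617 and chr9:108953436-108953585, both on the plus strand.
Col1a2 upstream: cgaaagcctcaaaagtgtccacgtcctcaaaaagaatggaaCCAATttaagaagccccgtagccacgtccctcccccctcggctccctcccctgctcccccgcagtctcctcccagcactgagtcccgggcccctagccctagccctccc
Col7a1 upstream: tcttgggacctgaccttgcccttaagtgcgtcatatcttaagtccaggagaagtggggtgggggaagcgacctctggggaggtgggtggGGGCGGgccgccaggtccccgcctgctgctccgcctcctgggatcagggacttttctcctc
Capitals mark the letters CCAAT and GGGCGG, which were searched on both strands. In the 250 bases before the start, CCAAT was held by 11 of 28 collagen promoters (39.3%) and by 34.5% of 27025 promoters of all genes. GGGCGG was held by 18 of 28 collagen promoters (64.3%) and by 32.9% of all. The collagens had met the detection rule, whereas the promoters of all genes were taken without one, so the sets are unlike. A match of letters is a description of the window and not a bound site.

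The first comparison, Dicer-null over wild type, asked which collagens differ in ES cells without Dicer. Of the 33 tested collagens, 15 fell and 4 rose at an adjusted p under 0.05, against 40.4% of all genes called in either direction, 20.1% lower and 20.4% higher. The median log2 ratio of the collagens was -0.24, beside 0.01 over all genes. All 4 arrays of a called collagen had the same sign in each of the 19 cases. Col3a1, Col6a1 and Col6a3 met the filter for testing only through wild-type RNA, which favours a lower ratio. A stricter filter required both RNAs to be well above background on all 12 arrays. It left 22 collagens, of which 9 fell and 4 rose, beside 42.9% of all genes called in either direction. The clones were close to each other, with a median SD of 0.05 over the 33 genes and a largest one of 0.47, for Col5a1. Separate cultures are not named, so each p reflects only how these samples spread, and the single wild-type RNA adds no spread of its own. In bulk RNA, fewer cells of a type and less RNA per cell cannot be told apart.

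**Figure D1:**
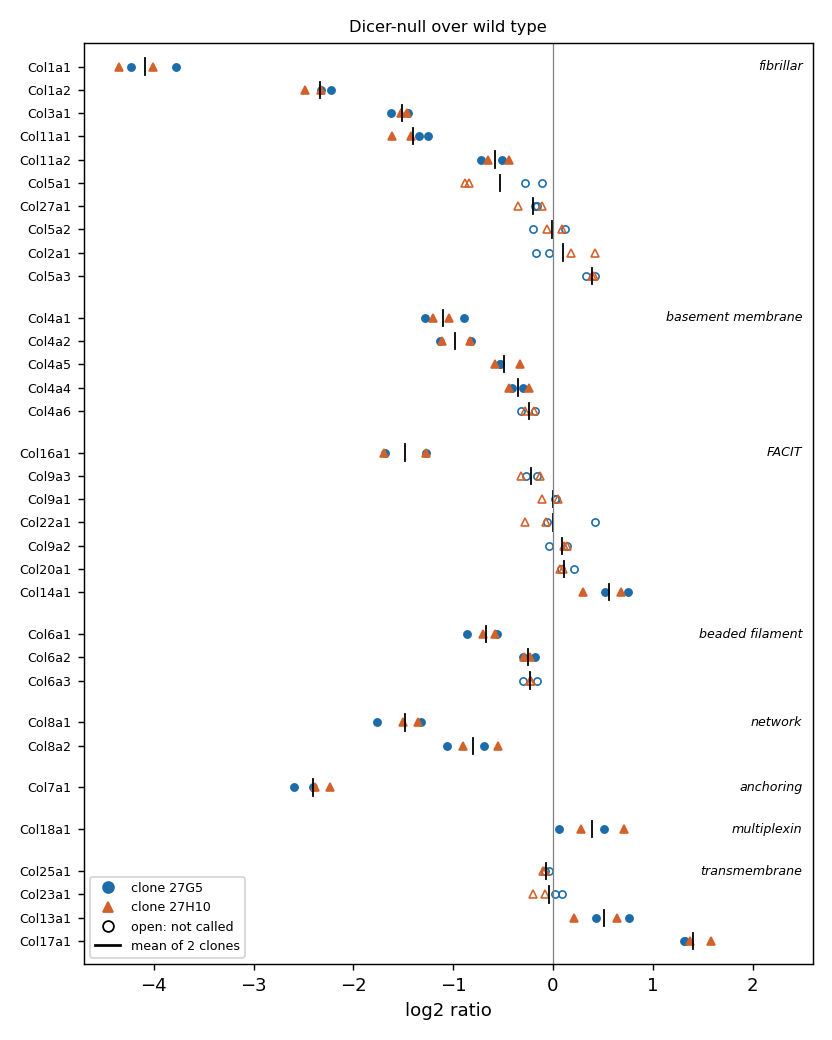
Log2 ratio of Dicer-null over wild type for the 33 tested collagens, grouped by class on the vertical axis. Each point is 1 array (circles, clone 27G5; triangles, clone 27H10), filled where the gene was called, and the black bar is the mean of 2 clones. Col1a1 lies lowest at -4.09 and Col17a1 highest at 1.40.

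Among the 10 fibrillar collagens tested, 5 fell and none rose, against 20.1% of all genes lower and 20.4% higher. Under the stricter filter 3 of 7 fell. The chain Col1a1, which with Col1a2 makes type I collagen, had the largest fall of all members. Its signal was 280, 345, 255 and 302 in Dicer-null RNA, against 5257, 4720, 5209 and 4870 in wild-type RNA on the same arrays. The ranges were far apart, and the log2 ratio was -4.09 ± 0.13 (SD, n = 2 clones; limma adjusted p = 0.000103), a fold of 17.0 lower. The probe is printed in 10 spots, whose SD within an array was 0.03 to 0.10 across the arrays. Col1a2, the partner chain, had 122, 144, 108 and 132 in Dicer-null RNA, against 610, 670, 603 and 662 in wild-type RNA. Its ratio was -2.34 ± 0.09 (adjusted p = 0.000132), 5.05-fold lower, and again no null value came near a wild-type one.

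Col3a1, whose homotrimer accompanies type I in soft tissues, gave 69.7, 95.6, 68.7 and 97.3 in Dicer-null RNA, against 215, 262, 197 and 268 in wild-type RNA. It was not well above background on any null array, so the fold is a lower bound: at least 2.78-fold lower, with the null channel raised to the lowest signal well above background on its array (adjusted p = 0.000462). This convention holds for every bound below. Col11a1, a chain of type XI that is known from cartilage fibrils, had 167, 189, 155 and 153 in Dicer-null RNA, against 423, 448, 415 and 468 in wild-type RNA. Its ratio was -1.41 ± 0.16 (adjusted p = 0.000592). Col11a2, another type XI chain, fell less, at -0.58 ± 0.05 (adjusted p = 0.0022), with arrays from -0.72 to -0.44.

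The other 5 fibrillar chains did not pass. Col5a1, which in fibroblasts nucleates fibrils with type I, had 2217, 2375, 1510 and 1551 in Dicer-null RNA, against 2696, 2568, 2780 and 2788 in wild-type RNA. The values were lower on all arrays but unequal between clones, at -0.20 in 27G5 and -0.86 in 27H10 (mean -0.53 ± 0.47, adjusted p = 0.0749). Col27a1 was at -0.20 ± 0.04 and not well above background in null RNA. It was called lower in 7 of 14 alternative settings, at -1.04 on the scanner's log ratio (adjusted p = 0.00214), and its second probe read -0.46. The others were Col5a2 at -0.01 ± 0.04, Col2a1 at 0.10 ± 0.29 and Col5a3 at 0.39 ± 0.02 (adjusted p = 0.19). Arrays of Col5a2 ran from -0.20 to 0.13 and those of Col5a3 from 0.33 to 0.42. Those of Col2a1 were -0.04 and -0.17 in 27G5 and 0.42 and 0.18 in 27H10, and those of Col27a1 ran from -0.35 to -0.11. The fibrillar chains thus differed widely among themselves, with both type I chains at the bottom and the type V chain Col5a3 at the top.

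All 5 type IV chains tested, the basement-membrane class, had a negative mean ratio, and 4 fell, against 20.1% of all genes lower. Under the stricter filter 3 of 4 fell. A fit that models the RNAs shared between ratios called 2 of the 5 lower. Col4a1 and Col4a2, whose chains assemble together into the form found in most basement membranes, read 1209, 1068, 1050 and 1088 for Col4a1 in Dicer-null RNA, against 2250, 2603, 2156 and 2500 in wild-type RNA. For Col4a2 the signals were 957, 873, 963 and 887 in Dicer-null RNA, against 1695, 1917, 1717 and 1921 in wild-type RNA. Neither gene's groups overlapped. The ratios were -1.10 ± 0.02 for Col4a1 (adjusted p = 0.00248) and -0.98 ± 0.00 for Col4a2 (adjusted p = 0.000487), about the same size in both clones. Col4a5, a chain of the kidney glomerulus, was not well above background in null RNA and was at least 1.40-fold lower (adjusted p = 0.00421). Col4a4, which partners it there, fell by 0.35 on the log2 scale (adjusted p = 0.0132), and its arrays ran from -0.44 to -0.24. Col4a6 was at -0.24 ± 0.01 (adjusted p = 0.0722), with arrays from -0.32 to -0.18. Col4a5 and Col4a6 also start head to head, on chromosome X, with 1343 bases between their annotated starts.

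Of the 18 tested collagens in the remaining classes, 6 fell and 4 rose, against 20.1% of all genes lower and 20.4% higher. Col7a1, the anchoring fibril collagen that ties the skin's basement membrane to the dermis, had 907, 881, 1026 and 940 in Dicer-null RNA, against 5481, 4660, 5347 and 4408 in wild-type RNA. That is a ratio of -2.40 ± 0.14 (adjusted p = 0.00112), the second lowest of the members. Col16a1, a fibril-associated collagen of the FACIT class (interrupted triple helices that sit on fibril surfaces), had 184, 225, 190 and 233 in Dicer-null RNA, against 589, 541, 615 and 562 in wild-type RNA. Its clones were nearly equal, at -1.47 and -1.48 (mean -1.48 ± 0.01, adjusted p = 0.000411). The network-forming Col8a1, a subendothelial collagen, had 123, 167, 154 and 166 in Dicer-null RNA, against 417, 418, 435 and 425 in wild-type RNA, a ratio of -1.48 ± 0.08 (adjusted p = 0.00125). Col8a2, which also forms networks, was at -0.80 ± 0.11 (adjusted p = 0.00127). The beaded-filament chains Col6a1 and Col6a2 fell as well: Col6a1 was not well above background in null RNA and was at least 1.50-fold lower, and Col6a2 was at -0.25 ± 0.02 (adjusted p = 0.0325; 0.0573 with the clone as a replicate block).

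None of the 4 collagens that rose over wild type was fibrillar or of type IV. Col17a1, the transmembrane collagen of epithelial hemidesmosomes, had 897, 914, 1022 and 934 in Dicer-null RNA, against 360, 365, 342 and 360 in wild-type RNA. Its ratio was 1.40 ± 0.11 (adjusted p = 0.000278), 2.64-fold higher, and the groups did not overlap. Col13a1, also transmembrane, was at 0.51 ± 0.12 (adjusted p = 0.0103), and the FACIT Col14a1 was at 0.57 ± 0.10 (adjusted p = 0.0377). Col18a1, the source of endostatin, was at 0.39 ± 0.14 (adjusted p = 0.0155). Its probe was saturated on 2 of the 4 arrays in each RNA, and in the labelled lines described below its dye-swapped arrays had opposite signs, between -0.41 and 0.95 in 27G5 with the Dnmt1 label. The remaining 8 collagens of these classes did not pass and lay between -0.23 for Col6a3 and 0.12 for Col20a1. On the scanner's log ratio both passed, Col6a3, not above background in null RNA, at -1.19 and Col20a1 at 0.38.

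Of the published miR-29 target list named above, 6 members were tested over wild type, 5 fell (Col1a1, Col1a2, Col3a1, Col4a1 and Col4a2) and none rose. Of all genes, 20.1% were called lower and 20.4% higher. Col5a3 was higher without passing, and Col15a1 was not tested. Col3a1 met the filter for testing only through wild-type RNA. The median of the 6 was -1.31. All of these are among the genes already given, and the list is not independent of what was known of them.

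Leaving out 1 clone's ratio from the comparison with wild type left 13 collagens called in either case, where 17.4% of all genes were called without the 27G5 ratio and 15.6% without the 27H10 ratio. The 6 that were lost were the same each time, Col4a4, Col4a5, Col6a2, Col13a1, Col14a1 and Col18a1. A fit that models the RNAs shared between ratios called 10 collagens and 9.7% of all genes, and lost these 6 together with Col6a1, Col8a2 and Col11a2.

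The comparisons with the labelled lines asked which collagens differ when Dicer-null cells are labelled as overexpressing a DNA methyltransferase. In Dnmt1-labelled cells 7 collagens rose and 2 fell, against 23% of all genes called in either direction, 12% higher and 11% lower. In Dnmt3a,3b-labelled cells 6 rose and 2 fell, against 21.2% of all genes, 10.4% higher and 10.8% lower. The median collagen ratio was 0.01 in the Dnmt1-labelled and 0.02 in the Dnmt3a,3b-labelled cells, beside 0.01 over all genes in each. Both comparisons share the RNA of the Dicer-null parent, which is also the upper term of the comparison with wild type, so their values are given side by side and not as independent evidence of each other. The clones lay further apart than over wild type, with a median SD of 0.11 with the Dnmt1 label and 0.12 with the Dnmt3a,3b label. These SDs are not like for like. Over wild type both clones share the wild-type RNA, whereas here each clone has its own parent RNA.

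**Figure D2:**
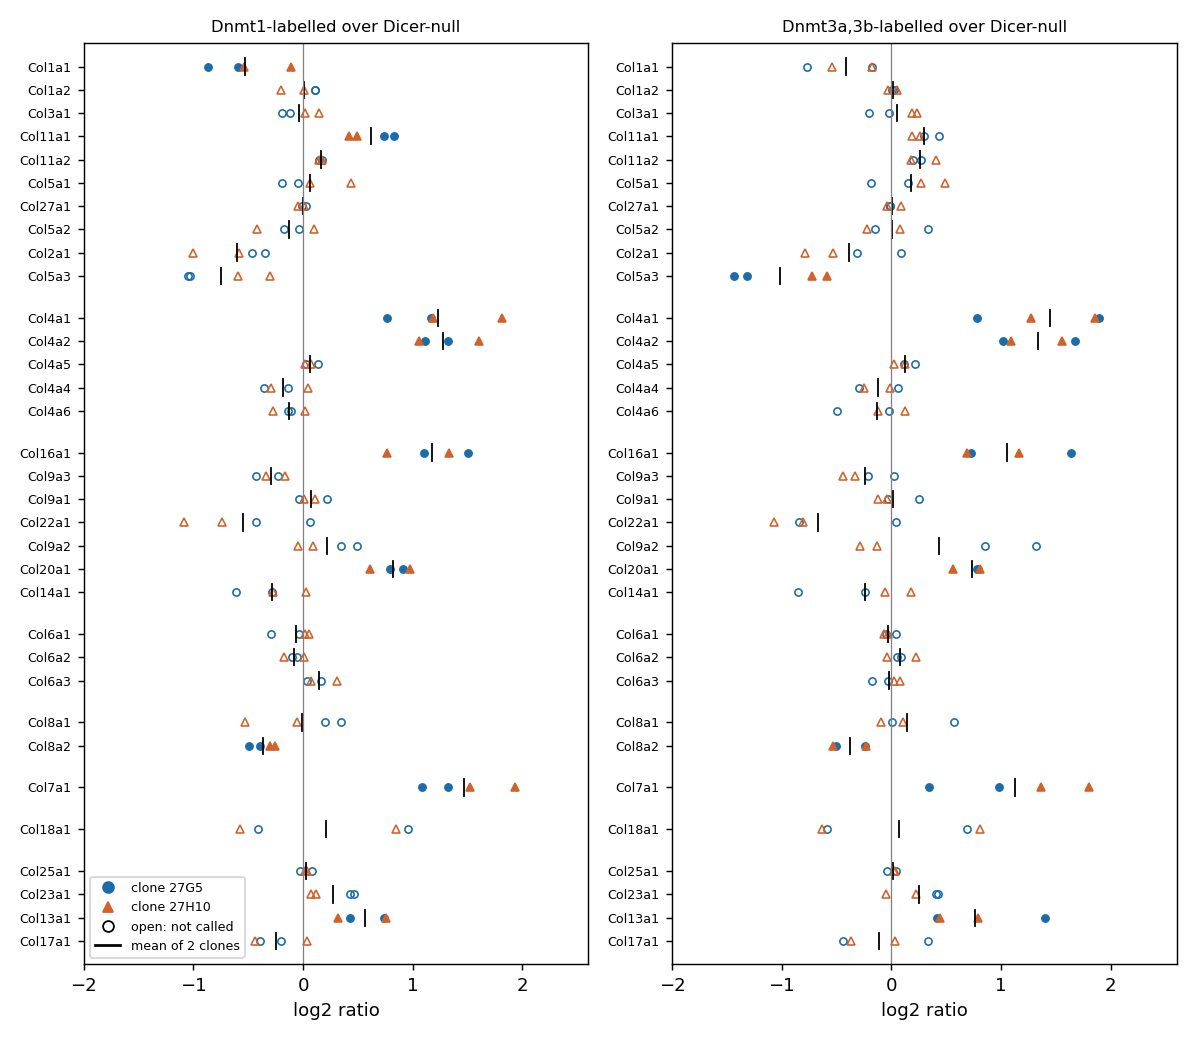
Log2 ratio of Dnmt1-labelled (left) and Dnmt3a,3b-labelled cells (right) over Dicer-null cells for the same 33 collagens in the same order. Each point is 1 array (circles, clone 27G5; triangles, clone 27H10), filled where the gene was called, and the black bar is the mean of 2 clones. Col4a1, Col4a2, Col7a1 and Col16a1 lie above 0 on every array of both panels, while Col1a2 lies near 0.

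The type IV pair rose in both lines. Col4a1 had 1807, 1607, 3530 and 2243 in Dnmt1-labelled RNA, against 805, 948, 1006 and 986 in Dicer-null RNA, a ratio of 1.23 ± 0.38 (adjusted p = 0.0057). In Dnmt3a,3b-labelled RNA it had 3016, 1637, 3728 and 2302, against 812, 954, 1032 and 951 in Dicer-null RNA, a ratio of 1.45 ± 0.16 (adjusted p = 0.00456). The groups did not overlap in either case. Col4a2 had 2543, 2437, 2895 and 2101 in Dnmt1-labelled RNA, against 1020, 1128, 953 and 1012 in Dicer-null RNA. Its ratios were 1.27 ± 0.08 in Dnmt1-labelled (adjusted p = 0.00177) and 1.34 ± 0.02 in Dnmt3a,3b-labelled cells (adjusted p = 0.00206). In folds, Col4a1 was 2.35 and Col4a2 2.41 times the Dicer-null level with the Dnmt1 label, and 2.73 and 2.52 times with the Dnmt3a,3b label. The other 3 type IV chains did not pass in either line and lay between -0.18 and 0.12.

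Col7a1 and Col16a1 also rose in both lines. Col7a1 had 1471, 1528, 2783 and 3762 in Dnmt1-labelled RNA, against 695, 612, 968 and 984 in Dicer-null RNA. In Dnmt3a,3b-labelled RNA the signals were 806, 1262, 2515 and 3054, against 634, 638, 975 and 877 in Dicer-null RNA. Clone 27H10, the last 2 values of each set, was the higher one in both lines, and in 27G5 the lowest Dnmt3a,3b value fell within the range of the parents. The ratios were 1.46 ± 0.37 with the Dnmt1 label (adjusted p = 0.013) and 1.12 ± 0.65 with the Dnmt3a,3b label (adjusted p = 0.0265). Both calls were lost when the RNAs shared between ratios were modelled (adjusted p = 0.129 and 0.213). Col16a1 had 477, 544, 394 and 509 in Dnmt1-labelled RNA, against 223, 192, 231 and 202 in Dicer-null RNA (1.18 ± 0.18, adjusted p = 0.00325). In Dnmt3a,3b-labelled RNA it had 374, 587, 367 and 457, against 226, 188, 227 and 204 in Dicer-null RNA (1.06 ± 0.18, adjusted p = 0.00456), with no overlap in either line.

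Smaller rises were called for 3 more genes. Col20a1, a FACIT collagen, was at 0.82 ± 0.04 in Dnmt1-labelled cells (adjusted p = 0.00344) and 0.73 ± 0.07 in Dnmt3a,3b-labelled cells (adjusted p = 0.00484). Col13a1 was at 0.56 ± 0.03 and 0.76 ± 0.21 in the same order of lines, and it had already risen over wild type. Col11a1 rose in Dnmt1-labelled cells, at 0.62 ± 0.23 (adjusted p = 0.0173), and was at 0.30 ± 0.10 in Dnmt3a,3b-labelled cells (adjusted p = 0.116).

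Of the fibrillar chains, Col1a1 was lower on every array of both lines. It had 133, 159, 141 and 194 in Dnmt1-labelled RNA, against 242, 239, 205 and 210 in Dicer-null RNA (-0.53 ± 0.29, adjusted p = 0.0295). In Dnmt3a,3b-labelled RNA it had 144, 206, 149 and 180, against 246, 232, 217 and 203 in Dicer-null RNA (-0.42 ± 0.08, adjusted p = 0.0567), where 1 value reached the parents' range. The Dnmt1 call was lost in 5 of 14 alternative settings. Col1a2 was at 0.01 ± 0.14 and 0.01 ± 0.00 in the Dnmt1-labelled and Dnmt3a,3b-labelled cells, with all signals between 87.5 and 115. Col3a1 was at -0.04 ± 0.17 and 0.05 ± 0.23 and was above background on no more than 1 array in any of these RNAs. None of these chains of types I and III rose in either line.

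Col5a3, a minor type V chain, fell in Dnmt3a,3b-labelled cells. It had 330, 385, 550 and 551 there, against 891, 958, 910 and 828 in Dicer-null RNA, with no overlap (-1.02 ± 0.51, adjusted p = 0.0246). In Dnmt1-labelled RNA it had 454, 447, 576 and 645, against 929, 924, 867 and 797 in Dicer-null RNA, and did not pass (-0.74 ± 0.42, adjusted p = 0.0523; 0.0246 with the clone as a replicate block). The fall was larger in 27G5 than in 27H10 in both lines. Col2a1, the cartilage collagen, was at -0.60 ± 0.27 in Dnmt1-labelled cells (adjusted p = 0.0615) and -0.39 ± 0.39 in Dnmt3a,3b-labelled cells (adjusted p = 0.175). Its second probe, printed in 10 spots, read -0.77 ± 0.33 and -0.50 ± 0.42. With the mean of its probes Col2a1 was called lower with the Dnmt1 label, at -0.68 (adjusted p = 0.0444). The remaining fibrillar chains, Col5a1, Col5a2, Col11a2 and Col27a1, lay between -0.13 and 0.26 in these lines, and none passed. Col8a2 was not well above background in either line and was at least 1.23-fold lower with the Dnmt1 label (adjusted p = 0.0305) and at least 1.30-fold lower with the Dnmt3a,3b label (adjusted p = 0.0294).

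Among the other collagens that did not pass in the labelled lines was Col22a1, a FACIT collagen of tissue junctions. It was at -0.55 ± 0.52 with the Dnmt1 label and -0.67 ± 0.38 with the Dnmt3a,3b label. With the clone as a replicate block it passed in both lines (adjusted p = 0.0220 and 0.0148). Its second probe, above background on all 12 arrays, read less, at -0.20 ± 0.45 and -0.21 ± 0.18. Col9a3 was at -0.29 and -0.24, and the transmembrane Col23a1 at 0.27 and 0.26 in the same order of lines. Col17a1, which had risen over wild type, was at -0.25 ± 0.07 (adjusted p = 0.0815) and -0.11 ± 0.08. Of the 6 tested members of the published miR-29 list, 2 rose (Col4a1 and Col4a2) and 1 fell in each line. The one that fell was Col1a1 with the Dnmt1 label and Col5a3 with the Dnmt3a,3b label. Of all genes, 23% and 21.2% were called in the same order of lines.

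**Figure D3:**
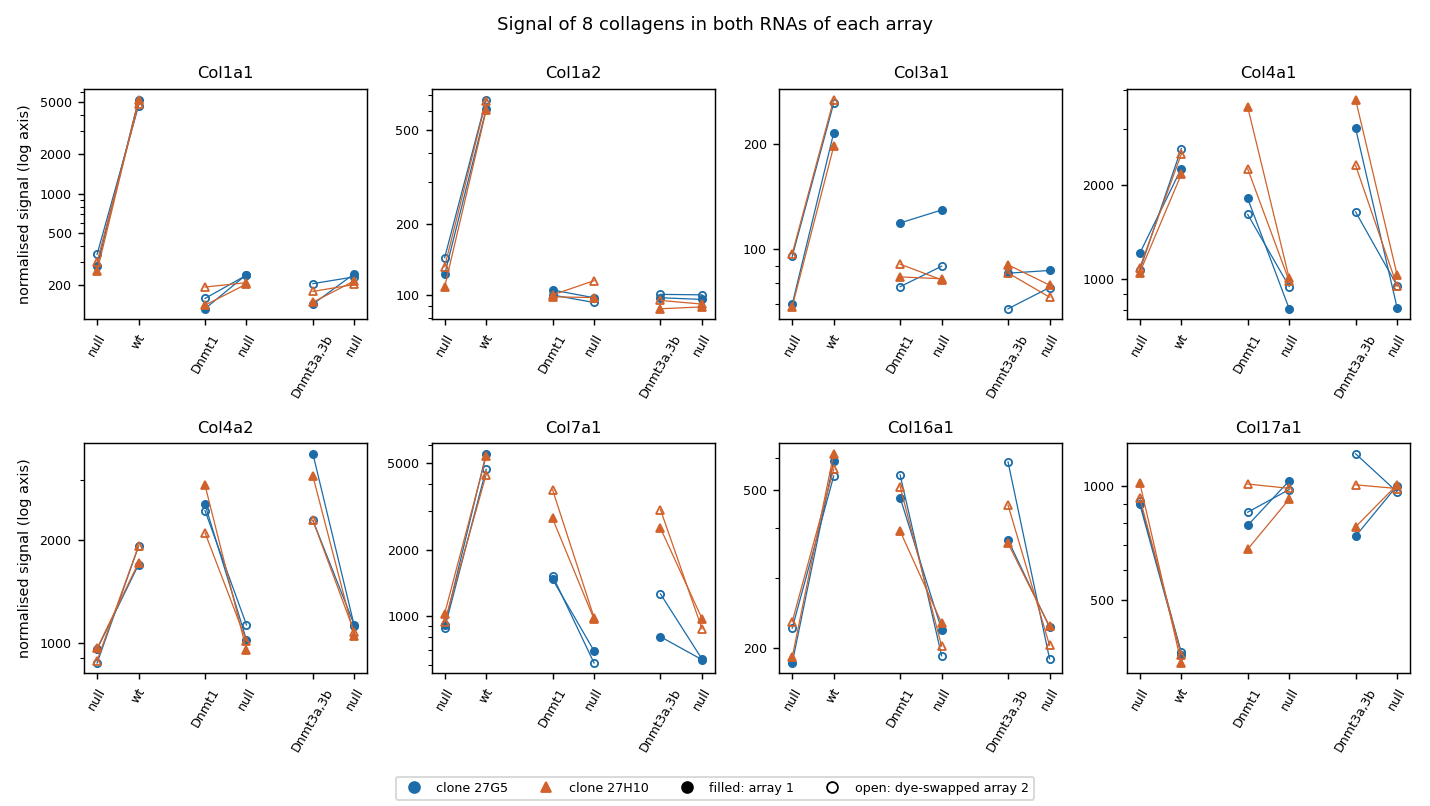
Normalised signal of 8 collagens in both RNAs of every array, on a log axis that differs between panels, with lines joining the RNAs of 1 array (circles, clone 27G5; triangles, clone 27H10; filled, array 1; open, array 2 with the dyes exchanged; null, Dicer-null; wt, wild type). Col1a1, Col1a2 and Col3a1 are low in all RNAs but wild type, whereas Col4a1, Col4a2 and Col16a1 are high in the Dnmt1-labelled, Dnmt3a,3b-labelled and wild-type RNAs and low in Dicer-null RNA. Col17a1 is high in all but wild type.

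Without the 27G5 ratio or without the 27H10 ratio, 0 collagens were called in Dnmt3a,3b-labelled cells, where 4 and 0 of all genes were then called. In Dnmt1-labelled cells 6 collagens were called without either clone's ratio, beside 23.4% of all genes without 27G5 and 11.7% without 27H10. Those lost without 27G5 were Col1a1, Col8a2, Col11a1 and Col13a1, and those lost without 27H10 were Col7a1, Col8a2 and Col13a1. Modelling the shared RNAs left 4 collagens and 2.39% of all genes called with the Dnmt1 label, and 3 collagens and 1.92% of all genes with the Dnmt3a,3b label. Col7a1, Col8a2 and Col13a1 were lost in both lines, Col1a1 and Col11a1 with the Dnmt1 label and Col5a3 and Col20a1 with the Dnmt3a,3b label.

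Adding the ratios within a clone placed the labelled lines against wild type, although no array held those RNAs together. Col4a1 summed to 0.13 in Dnmt1-labelled and 0.35 in Dnmt3a,3b-labelled cells, and Col4a2 to 0.29 and 0.36. Col16a1 summed to -0.30 and -0.42. Col7a1 stayed lower, at -0.94 and -1.28. Col1a1 summed to -4.62 and -4.51 and Col1a2 to -2.33 and -2.32. No sum is given for chains near background in these RNAs, such as Col3a1 and Col4a5. By these sums, which use the brightest probes, Col4a1 and Col4a2 lay near the wild-type level. The second Col4a1 probe fell less over wild type, at -0.66, and rose more in the labelled lines, at 1.34 and 1.58. By that probe Col4a1 lay further above wild type. The type IV chains Col4a4, at -0.53 and -0.47, and Col4a6, at -0.37 and -0.37, lay below wild type, as did Col7a1. Of the type I chains, Col1a1 by its brightest probe lay further below wild type than in the null parents, where it read -4.09. That step rests on ratios of -0.53 and -0.42 over Dicer-null, of which only the Dnmt1 one was called. The second Col1a1 probe read -0.09 and 0.07 there and was above background on no more than 1 array in any of these RNAs. Col1a2 lay about as far below as in the null parents, where it read -2.34. In Dnmt1-labelled RNA Col1a2 was well above background on only 3 arrays. The sums carry no test.

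The Dnmt3a,3b-labelled and Dnmt1-labelled cells were also set against each other. Over the 33 genes the difference of the 2 ratios ran from -0.34 for Col7a1 to 0.22 for Col9a2. The limma contrast called 0 collagens and 0% of all genes at an adjusted p under 0.05, and 0 collagens and 191 genes had an unadjusted p under 0.05. For Col4a1 the difference was 0.22 with a standard error of 0.20, so a moderate difference between the lines would not be detectable with 2 clones. The contrast also takes the ratios of the 2 lines as independent, although they share the parent RNA. Their clone deviations correlated at 0.36, so the standard error may be too wide.

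Different probes of a gene did not always give the same value. Of the 34 members, 25 had several probes, and the brightest was the most 3′ one in 16 of them. Of 15 genes with several probes past the filter, 3 had probes of opposite sign over wild type and 3 had probes more than 1 log2 unit apart. The 3 Col1a1 probes shown above read -4.09 ± 0.13, -1.67 ± 0.10 and 0.01 ± 0.02 over wild type, from the most 3′ to the most 5′. The last was not well above background in either RNA of those arrays, and the mean over the 3 probes was -1.92. Col4a6 had a second probe, at 135829764 to 135829823 on chromosome X (mm7), that was above background on all 4 wild-type arrays and on none for the null RNA, and with the mean of its probes Col4a6 was called lower, at -0.77. The second probe of Col11a2 read -0.01 ± 0.01, that of Col5a1 0.01 ± 0.03 and that of Col17a1 0.73 ± 0.01.

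The probes of Col4a1 and of Col4a2 had the same sign in every comparison. Those of Col4a1, at 11167020 to 11167079 and 11167857 to 11169691 on chromosome 8 (mm7, minus strand), read -1.10 and -0.66 over wild type, 1.23 and 1.34 with the Dnmt1 label and 1.45 and 1.58 with the Dnmt3a,3b label. Those of Col4a2 read -0.98 and -0.94, then 1.27 and 1.19, then 1.34 and 1.29. Col7a1, Col16a1, Col1a2 and Col3a1 each had 1 probe past the filter.

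**Figure D4:**
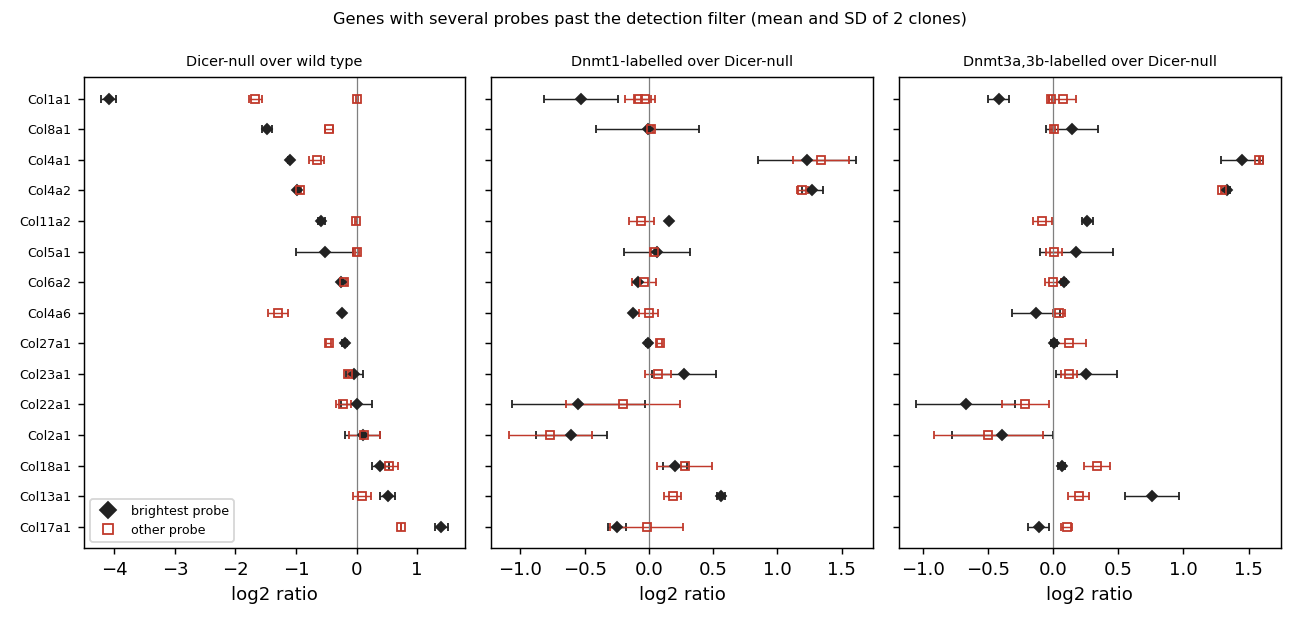
Mean log2 ratio of each probe past the filter for the 15 collagens that had several, in the 3 comparisons, with bars for the SD of 2 clones. Black diamonds are the brightest probes and red squares the others. The Col1a1 probes span -4.09 to 0.01 over wild type, and both probes of Col4a1 and of Col4a2 lie above 1 in both labelled lines.

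Genes that act on collagen were then read from lists of maturation genes, receptors, breakdown genes and basement-membrane partners. The breakdown list holds matrix proteases together with their inhibitors, so its counts give no direction of breakdown. Of 27 maturation genes, 10 fell and 3 rose over wild type, against 40.4% of all genes called in either direction, with a median of -0.02. Bmp1, the protease that trims the ends of fibrillar procollagen, was at -2.73 ± 0.07 (adjusted p = 0.000103). Serpinh1, the collagen chaperone, was at -2.22 ± 0.18 and Loxl1, which cross-links matrix proteins, at -1.35 ± 0.06. Pcolce2, an enhancer of that protease, rose, at 1.13 ± 0.17, as did Crtap, a subunit of the prolyl 3-hydroxylase complex, at 1.10 ± 0.17. In Dnmt1-labelled cells 5 maturation genes rose and 3 fell, and in Dnmt3a,3b-labelled cells 5 rose and 2 fell, against 23% and 21.2% of all genes. Bmp1 read 1.69 ± 0.12 and 2.11 ± 0.07 in the Dnmt1-labelled and Dnmt3a,3b-labelled cells. Serpinh1 read 1.61 ± 0.19 and 1.66 ± 0.47, and Loxl1 1.22 ± 0.68 and 1.20 ± 0.14. Pcolce2 ran the other way, at -1.23 ± 0.24 and -1.06 ± 0.06. Fkbp10, a folding enzyme of procollagen, fell in all 3 comparisons, at -1.22 over wild type and -0.89 and -0.61 over Dicer-null.

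Of 7 collagen receptors, 2 fell and 1 rose over wild type, a share near the 40.4% of all genes. The integrin Itga11 was at -1.80 ± 0.09, the kinase Ddr1 at -1.01 ± 0.01 and the kinase Ddr2 at 1.37 ± 0.29. None of the 7 was called in a labelled line, although Lair1, near background in these RNAs, was called lower on the scanner's log ratio, at -1.33 with the Dnmt1 label and -1.55 with the Dnmt3a,3b label. Of 12 breakdown genes 7 fell and none rose over wild type, against 20.1% of all genes lower, with Timp2, an inhibitor of matrix proteases, at -2.73 ± 0.17 and the membrane protease Mmp14 at -1.66 ± 0.08. In each labelled line 4 of them rose and none fell, against 12% and 10.4% of all genes higher, among them Timp2 at 0.55 ± 0.03 and 0.42 ± 0.03. Of 10 basement-membrane partners 4 rose and 2 fell over wild type, against 40.4% of all genes called: Nid1, which links laminin to type IV collagen, was at 1.98 ± 0.20, while the laminin chain Lamb1 was at -1.36 ± 0.06 and Pxdn, which cross-links type IV collagen, at -1.14 ± 0.17. Lamb1 rose in both labelled lines, at 0.71 ± 0.15 and 0.93 ± 0.38, whereas Nid1 did not pass. With the shared RNAs modelled, Fkbp10, Loxl1 and Pcolce2 were called in none of the 3 comparisons (Fkbp10 adjusted p = 0.0691 over wild type, 0.126 with the Dnmt1 label and 0.248 with the Dnmt3a,3b label). Crtap, Ddr1 and Pxdn then lost their call over wild type, and Timp2 and Lamb1 lost theirs in both labelled lines.

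**Figure D5:**
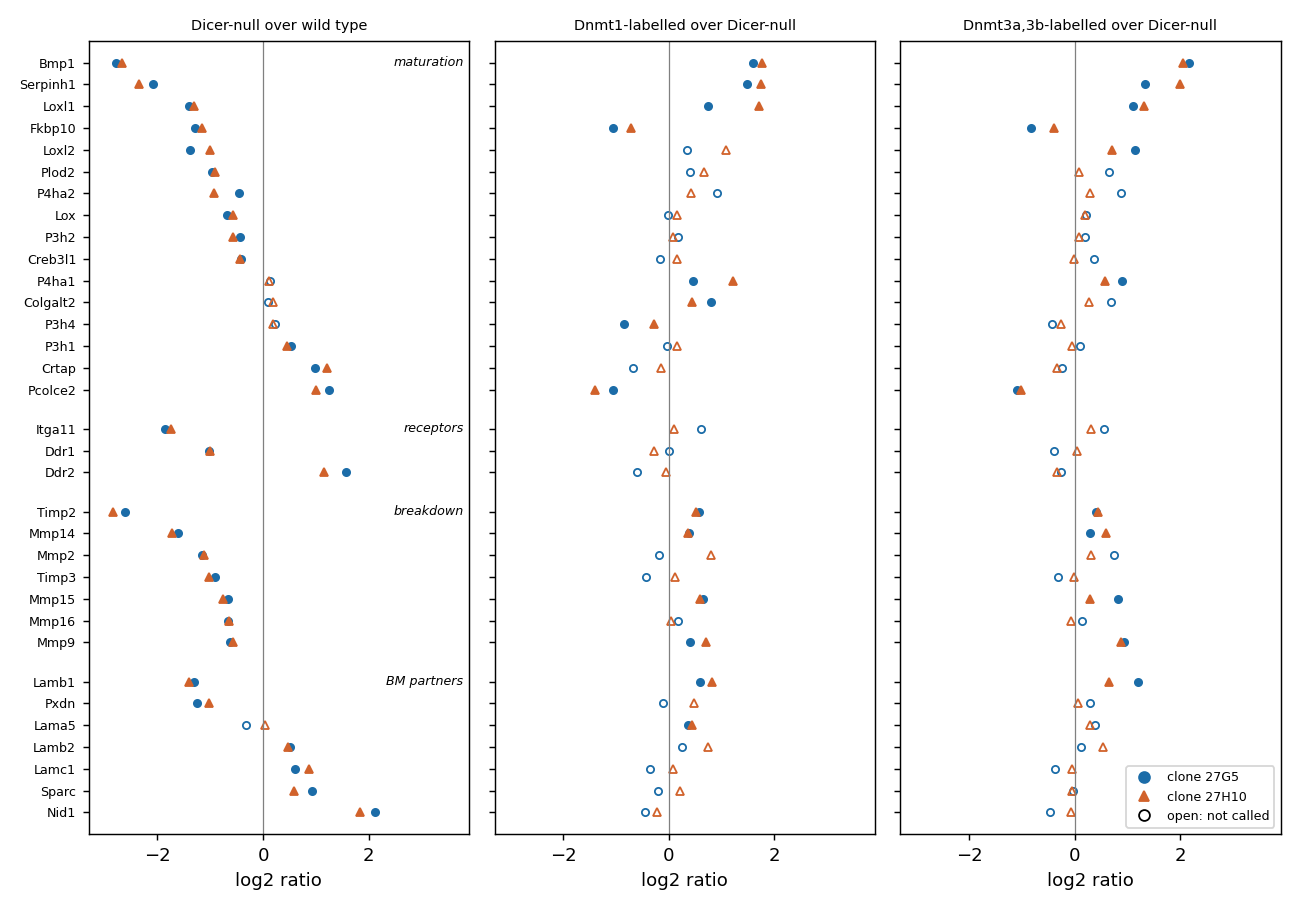
Log2 ratio of 33 genes of the 4 lists that were called in at least 1 comparison, in the 3 comparisons, with 1 point for each clone (circles, 27G5; triangles, 27H10), filled where called. BM stands for basement membrane. Bmp1 and Serpinh1 lie below -2 over wild type and above 1 in both labelled lines.

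Markers of other cell types moved in the same comparisons, and their part in the collagen results was not tested. The counts below stand beside these shares of all genes called. Over wild type 20.1% were lower and 20.4% higher. With the Dnmt1 label 12% were higher and 11% lower, and with the Dnmt3a,3b label 10.4% were higher and 10.8% lower. Of 14 fibroblast markers 7 fell and 3 rose over wild type. The cytoskeletal genes Cnn1 and Tagln were at -4.38 and -4.20, while Dcn rose, at 2.02, and Vim at 1.39. Postn and Twist2 were not above background in Dicer-null RNA. The summed signal of the list was 79518 to 94098 in Dicer-null RNA and 109654 to 114237 in wild-type RNA. In the labelled lines 3 fibroblast markers rose and 1 fell with the Dnmt1 label, and 2 rose and 1 fell with the Dnmt3a,3b label. The sums of the list were 62189 to 89554 and 57406 to 96014 in the labelled lines, against 64185 to 75475 and 63405 to 79958 in the parents. Their direction followed the dye: in every pair the labelled RNA was higher on array 1 and lower on the dye-swapped array 2. Of 11 trophoblast markers 7 fell and 1 rose over wild type, and the sum was 32365 to 65209 in Dicer-null RNA and 92672 to 213141 in wild-type RNA. In the labelled lines 7 and 8 of these 11 rose and none fell. The sums were 109386 to 276080 with the Dnmt1 label and 107158 to 218238 with the Dnmt3a,3b label, against 38956 to 58958 and 40268 to 62210 in the Dicer-null parents. Trophoblast sums of 1 RNA also differed between its dye-swapped arrays, at 135400 and 276080 in Dnmt1-labelled 27G5. Of 11 endoderm markers 7 fell and 1 rose over wild type, with sums of 7508 to 8165 in Dicer-null RNA and 16886 to 18087 in wild-type RNA. In the labelled lines 2 rose and 3 fell with the Dnmt1 label, and 3 rose and 2 fell with the Dnmt3a,3b label. The endoderm sums were 7014 to 11046 and 6516 to 8182 there, against 7166 to 7769 and 7279 to 7704 in the parents. With the Dnmt1 label they split by clone, at 11046 and 10653 in 27G5 and 7014 and 7462 in 27H10. The summed signal of the 5 type IV chains, for comparison, was 7366 to 11175 in Dnmt1-labelled and 7232 to 10614 in Dnmt3a,3b-labelled RNA, against 5987 to 6657 and 5820 to 6622 in Dicer-null RNA. The sum of the 10 fibrillar chains was 4532 to 5186 in Dicer-null RNA and 10698 to 11285 in wild-type RNA.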

How the data were processed

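Agilent scanner files gave mean signal intensity and median background intensity per spot, as deposited, and per the file headers came from Feature Extraction 9.5.1.1 (labelled lines) and 9.1.3.1 (wild-type arrays). The deposited log10 ratio of processed signals and the authors' log2 value table (column medians -0.13, 0.17, -0.02, 0.13, -0.11, 0.14, -0.14, 0.12, -0.13, 0.11, -0.10 and -0.02; centring unknown) served as alternatives. Labelled RNAs of a clone shared 1 slide, so slide and clone cannot be told apart there; wild-type arrays had their own.

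In R 4.3.3 with limma 3.58.1, background was corrected by normexp (offset 50), ratios by loess. Spots of a probe, then dye-swapped arrays turned 1 way, were averaged. Probes had to be well above background on both arrays of a pairing for at least 1 RNA. The 6 ratios were fitted with lmFit, 1 coefficient per comparison, and eBayes, with Benjamini-Hochberg adjustment over 20048 genes. SD is over 2 clones. Signals are per-channel values after Aquantile normalisation. Clones are the same lines in every comparison, which pairs the ratios; their deviations correlated at -0.06, -0.13 and 0.36. The fit was tested on simulated data. Values by sample were given for fibrillar and type IV members and for called members with a log2 size of 1 or more. Members, lists and tests were chosen with earlier results of these data known. The number of arrays limits the precision.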

Additional observations from a re-analysis of the deposited data

Results flagged for a closer look

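For 8 collagens the clones had ratios of opposite sign on both of their arrays in 1 or 2 comparisons; the difference between clones was not tested, since each clone has 1 ratio per comparison. The widest gap was that of Col9a2, a FACIT collagen of cartilage, at 1.09 in 27G5 and -0.21 in 27H10 in Dnmt3a,3b-labelled over Dicer-null cells. Its signals were 2880, 2270, 1238 and 1099 in Dnmt3a,3b-labelled RNA, the first 2 from 27G5, against 1152, 1259, 1359 and 1340 in Dicer-null RNA. With the Dnmt1 label, Col8a1 was at 0.27 in 27G5 and -0.29 in 27H10, Col5a1 at -0.12 and 0.25, Col3a1 at -0.16 and 0.083 and Col6a1 at -0.17 and 0.032. With the Dnmt3a,3b label, Col3a1 was at -0.11 in 27G5 and 0.21 in 27H10 and Col6a3 at -0.10 and 0.051. Over wild type, Col2a1 was at -0.10 in 27G5 and 0.30 in 27H10 and Col23a1 at 0.059 and -0.14. Col6a1 with the Dnmt1 label and Col6a3 with the Dnmt3a,3b label were not well above background in either RNA, and Col3a1 on no more than 1 array, so the signs of these 3 are those of readings near background.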

How the results depend on the processing

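The 14 alternatives were arrays of 1 dye orientation, the clone as a replicate block, modelled shared RNAs, median centring, a normexp offset of 10, the scanner's log ratio, the authors' table, a stricter or no filter, the mean of probes, a trended robust eBayes and the left-out ratios. The counts of called collagens moved by over 1.5 times in the fit with shared RNAs, to 10 over wild type, 4 with the Dnmt1 label and 3 with the Dnmt3a,3b label. With 1 ratio or dye orientation left out they ranged from 13 to 20 over wild type, from 6 to 13 with the Dnmt1 label, from 0 to 12 with the Dnmt3a,3b label and from 0 to 0 for the difference between lines; such fits have fewer samples. The replicate block, which pairs the clones, called 18, 11, 9 and 0, lost Col6a2 over wild type and gained Col5a3 (adjusted p = 0.0246) and Col22a1 (0.0220) with the Dnmt1 label and Col22a1 (0.0148) with the Dnmt3a,3b label. With arrays numbered 1 alone Col18a1, saturated on part of the arrays, turned to -0.49 with the Dnmt1 label and to -0.61 with the Dnmt3a,3b label. Colgalt1 turned to 0.51 with the Dnmt1 label without the 27G5 ratio, and Plod3 to -0.31 with the Dnmt3a,3b label on arrays numbered 2. The cause was not tested. Col3a1, near background, ran from -3.65 to -1.46 over wild type.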
